A study of Rattus norvegicus with 32 samples.

Results

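The genes described here encode 10 components of the Wnt, R-spondin and HGF signals that endothelial cells send to their neighbours in the liver. They were chosen by symbol, as the 10 of 32623 genes in the count tables that are named Wnt2, Wnt9b, Wnt4, Wnt5a, Rspo3, Fzd4, Dkk3, Axin2, Hgf and Met, and all 10 were found. RNA was sequenced from liver sinusoidal endothelial cells (LSECs), the fenestrated cells that line the liver's capillaries, in 32 libraries of rats. In the CCl4 model, Wistar Han rats inhaled carbon tetrachloride, a hepatotoxin, for 2 weeks (acute injury, n = 5), 6 weeks (fibrosis, n = 5) or 12 to 14 weeks (cirrhosis, n = 6, labelled only as treated with CCl4, the duration coming from the series text), and untreated Wistar Han rats were the healthy group (n = 6). The study's methods state that drinking water in this model was supplemented with phenobarbital, that cells were taken some days after the last dose, and that LSECs were obtained by perfusion, digestion and iodixanol density centrifugation, with no sorting step in the labels. A second experiment used thioacetamide (TAA), another hepatotoxin, and its 10 libraries carry the labels control (n = 5) and TAA control (n = 5). Which of these received the toxicant cannot be told from the labels, their strain is labelled Wistar Han while the series text names Sprague-Dawley rats, and both groups are called by their labels here. Ages and separate litters or cultures are not given in the labels, so that p-values measure the spread between these libraries.

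Wnt proteins are secreted lipid-modified ligands that bind Frizzled receptors with LRP5 or LRP6 and thereby stabilise beta-catenin, which switches on target genes with TCF and LEF factors in the nucleus. R-spondins bind LGR receptors and keep Frizzled receptors at the cell surface, so that the same Wnt dose gives more signal. In the liver, endothelial cells around the central vein are a known source of WNT2, WNT9B and RSPO3 for pericentral hepatocytes, and hepatocyte growth factor (HGF) from non-parenchymal cells acts on hepatocytes through the receptor tyrosine kinase MET.

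Between 25646531 and 46464289 reads were assigned to genes per library, in estimated (expected) counts. Levels are given as CPM (read counts scaled to a common library total) after TMM scaling, which was computed over the 22 libraries of the CCl4 model and separately over the 10 libraries of the TAA experiment, so levels are not compared between experiments, and since transcript lengths were not used, levels are not compared between genes. A gene is called higher or lower where the limma-voom fit of a pair of groups gave a Benjamini-Hochberg adjusted p under 0.05 over all genes tested and a fold change above 1.5, and adjusted p-values below are of this kind unless a permutation test is named. The libraries labelled LSEC carried the LSEC markers unequally. Their summed level over 10 genes lay between 12566 and 22230 CPM in healthy and 12018 and 15612 CPM in cirrhosis, against 1996 to 2453 CPM in acute injury and 1376 to 2246 CPM in fibrosis. In these last 2 groups, 9 of 10 and 10 of 10 LSEC markers were called lower than in healthy, the scavenger receptor gene Stab2 among them (log2 fold change -4.52 and -4.18). Of 8 pan-endothelial markers, 6 were called lower in each, where 37.9% and 34.9% of all genes were. These 8 summed to 13535 to 21641 CPM in healthy, 3252 to 4279 CPM in acute injury and 2557 to 3152 CPM in fibrosis. One of them, the endothelial cadherin gene Cdh5, was not called (0.39, adjusted p = 0.156, and -0.18, adjusted p = 0.489). Another, Erg, was called higher in acute injury and not called in fibrosis (137 and 109 against 77.2 CPM in healthy). The largest parts of the sum in healthy were Eng, Kdr and Tie1 (6734, 3625 and 3381 CPM), at 546, 236 and 408 CPM in acute injury. Scaling to these markers, used below, follows such genes most and was not tested as a measure of endothelial content. A list of 9 genes induced by tissue dissociation, such as Fos and Egr1, summed to 28433 to 58928 CPM in healthy, 926 to 4115 CPM in acute injury, 3505 to 5876 CPM in fibrosis and 18206 to 38844 CPM in cirrhosis. Summed macrophage markers spanned 281 to 2697 CPM among healthy libraries and were highest in replicates 1, 2 and 4 (2058, 2138 and 2697 CPM). No marker gene was at 0 in all libraries of a group. In these bulk samples, fewer cells of a type and less RNA per cell cannot be told apart, and the part of these differences in the values below was not tested beyond the alternatives named.

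Most genes differed between healthy LSECs and those of acute injury or fibrosis, and the members have to be read against that. In acute injury, 8 of the 9 members tested were called, 7 lower (Wnt2, Wnt9b, Wnt4, Fzd4, Dkk3, Axin2 and Hgf, of which Fzd4, Axin2 and Hgf turned positive with scaling to the pan-endothelial markers) and 1 higher (Met), where 73.4% of 14317 genes were called (35.5% higher, 37.9% lower). Groups did not overlap for 5 of the lower members and for Met, as for 60.1% of genes (30.8% lower, 29.3% higher). In fibrosis, 7 of 10 were called, with Wnt2, Wnt9b, Fzd4, Dkk3 and Hgf lower (Fzd4 and Hgf positive with that scaling) and Wnt5a and Met higher, where 70.2% of 14538 genes were called (35.3% higher, 34.9% lower). There, 4 lower and 2 higher members did not overlap with healthy, as for 58.7% of genes (29.4% lower, 29.3% higher). Both totals called are near what those shares of all genes would give for 9 or 10 genes, and by themselves say nothing particular about the members. The split in acute injury was less near, with 7 of 9 lower beside 37.9% of genes. That split holds Wnt9b, whose fall was built into its test, and the genes that turned positive with the other scaling. In cirrhosis, 3 of the 9 tested were called, all higher (Axin2, Hgf and Met), against 51.8% of 14789 genes (27.1% higher, 24.7% lower), and only Hgf did not overlap with healthy, as for 27.3% of genes. The 3 comparisons share the 6 healthy libraries. Scaling to the pan-endothelial markers moved the median log2 fold change of all genes to 2.17, 2.53 and 0.826 in these comparisons. Between cirrhosis and fibrosis it moved to -1.82, and between cirrhosis and acute injury to -1.49. Signs and calls on that scale have to be read beside these medians. Wherever Wnt5a, or Wnt9b in a comparison with acute injury, is in such a count, it passed the filter on low counts only through the group in which it was high, and its call lends the count no support. Median log2 fold changes over the members tested were -1.83, -0.74 and 0.43, beside -0.09, -0.03 and 0.07 over all genes tested. In the TAA experiment 7 of 10 members were called between the groups as labelled, 5 lower and 2 higher in the group labelled TAA control, where 27.6% of 14376 genes were called (12.7% higher, 14.9% lower). There, 1 higher and 6 lower members did not overlap between the groups, as for 35.1% of genes (17.7% higher, 17.4% lower).

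**Figure D1:**
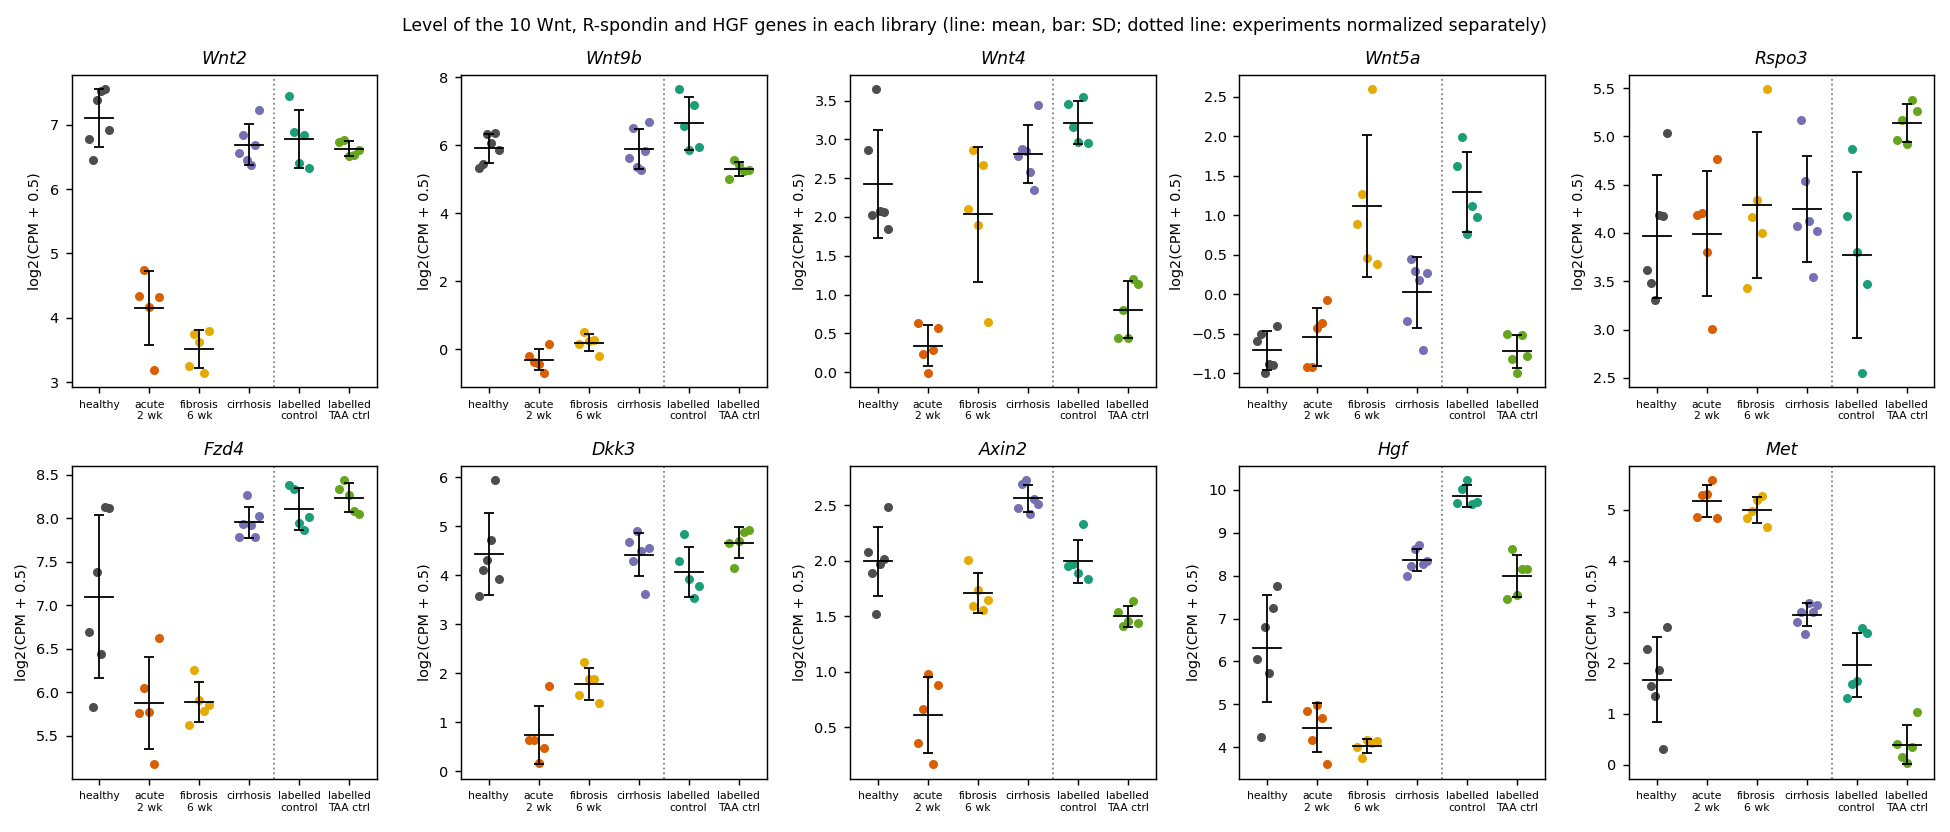
Each panel plots 1 gene as log2(CPM + 0.5) in every library by group, with the mean as a line and the SD as a bar; the 2 experiments, divided by a dotted line, were normalized separately. Wnt2, Wnt9b and Dkk3 in acute injury and fibrosis lie below all healthy and cirrhosis libraries, Met lies above them, and Rspo3 overlaps across the 4 groups of the CCl4 model.

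The pericentral Wnt ligands Wnt2 and Wnt9b were high in healthy LSECs, low after 2 and 6 weeks of CCl4, and back in the healthy range in cirrhosis. Wnt2 (ENSRNOG00000051905) stood at 87.1, 143 and 188 CPM as the lowest, median and highest of the 6 healthy libraries. The 5 acute libraries held 8.66, 17.4, 19.5, 19.6 and 26.2 CPM, and the 5 fibrosis libraries 8.33, 9.02, 11.8, 13 and 13.4 CPM. The cirrhosis libraries ran from 82.5 CPM over a median of 98.0 to 149 CPM. All 10 libraries of the earlier stages were below every healthy and every cirrhosis library, and cirrhosis and healthy overlapped. The fitted level was 7.81-fold lower in acute injury (log2 fold change -2.96 ± 0.29 SE, adjusted p = 1.63e-06) and 11.8-fold lower in fibrosis (-3.56 ± 0.24, adjusted p = 9.64e-08), and 9.05-fold higher in cirrhosis than in fibrosis (3.18, adjusted p = 1.88e-08). With scaling to the pan-endothelial markers these 3 log2 differences were smaller, at -0.70, -1.01 and 1.31, and still called. Wnt2 did not pass between fibrosis and acute injury (-0.54, adjusted p = 0.215) or between cirrhosis and healthy (-0.44, 95% confidence interval -0.90 to 0.02, adjusted p = 0.0908). Without the 3 healthy libraries rich in macrophage markers, an alternative chosen after seeing the data, the last difference was -0.62 with an adjusted p of 0.0478 and was called.

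Wnt9b (ENSRNOG00000003807), which signals through the same pathway, showed the largest fall among the 10 genes in acute injury and fibrosis. Healthy libraries ran from 40.1 CPM over a median of 62.7 to 82.3 CPM. The acute libraries held 0.115, 0.246, 0.27, 0.379 and 0.605 CPM, on 5 to 19 reads each, and the fibrosis libraries 0.372, 0.62, 0.683, 0.704 and 0.919 CPM, on 13 to 30 reads. In cirrhosis the range was 38.4 to 102 CPM with a median of 52.8 CPM. No library of the earlier stages came near the lowest healthy one, and the healthy and cirrhosis libraries were interleaved. Wnt9b was 200-fold lower in acute injury (-7.64 ± 0.44, adjusted p = 2.32e-08) and 86.5-fold lower in fibrosis (-6.43 ± 0.36, adjusted p = 2.1e-08), with the small counts limiting the precision of both. In comparisons with acute injury Wnt9b passed the filter on low counts only through the other group, in which it was high. A difference in that direction was thus built into those tests, and their values are given as a description. From fibrosis to cirrhosis it was 86.6-fold higher (6.44 ± 0.66, adjusted p = 2.26e-06). With scaling to the pan-endothelial markers the 3 log2 differences were -5.39, -3.88 and 4.57. The difference between cirrhosis and healthy was -0.05 (95% confidence interval -0.64 to 0.54, adjusted p = 0.876; with that scaling 0.70, adjusted p = 0.0195, and called), and fibrosis against acute injury missed the threshold (1.26, adjusted p = 0.0511) but passed it with upper-quartile scaling (adjusted p = 0.0495), without acute replicate 8 (1.51, adjusted p = 0.0175) or without fibrosis replicate 17 (1.46, adjusted p = 0.0341).

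The promoters of these 2 ligands are shown because the genes were low and high in the same groups, and each is the 250 bases before the gene's start in RefSeq's GRCr8 assembly (not the Rnor_6.0 build to which the reads were mapped), written 5′ to 3′ on the gene's strand. Capitals would mark the letters CTTTGAT or CTTTGAA, cores recognised by TCF and LEF factors, searched on both strands; neither window holds them, nor the AP-1 letters TGANTCA. Wnt2 lies at chr4:47340285-47340534 on the minus strand, with 70.4% G and C, and Wnt9b at chr10:89157066-89157315 on the minus strand, with 72.4%.
Wnt2: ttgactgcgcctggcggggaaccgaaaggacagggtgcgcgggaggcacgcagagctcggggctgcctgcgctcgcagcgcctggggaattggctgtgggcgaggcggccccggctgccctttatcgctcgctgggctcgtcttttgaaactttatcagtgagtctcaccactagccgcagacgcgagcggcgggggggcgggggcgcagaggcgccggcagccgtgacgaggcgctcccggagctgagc
Wnt9b: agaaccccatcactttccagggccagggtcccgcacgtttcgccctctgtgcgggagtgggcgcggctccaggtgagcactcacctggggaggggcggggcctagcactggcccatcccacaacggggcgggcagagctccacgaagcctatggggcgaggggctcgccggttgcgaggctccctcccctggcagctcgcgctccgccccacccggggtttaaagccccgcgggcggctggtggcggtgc
Of 33469 rat promoters of the same length, 7.58% held CTTTGAT or CTTTGAA and 6.34% held TGANTCA. Promoters were found for 9 of the 10 members, Dkk3 not being in the table.

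The balance of the 2 ligands inside a library, which does not depend on how libraries are scaled to each other, also moved. The log2 ratio of Wnt9b to Wnt2 expected counts was -1.20 ± 0.20 (SD, n = 6) in healthy, -5.86 ± 0.59 (n = 5) in acute injury, -4.07 ± 0.61 (n = 5) in fibrosis and -0.81 ± 0.31 (n = 6) in cirrhosis. Wnt9b thus fell 25.4-fold and 7.33-fold further than Wnt2 in acute injury and fibrosis, with no overlap with healthy (exact permutation test, two-sided, p = 0.00216 in each, the smallest the design allows, adjusted p = 0.00432 over 12 tests of ratios). In cirrhosis the ratio was 1.31-fold higher than in healthy, with overlapping groups (exact permutation p = 0.0238, adjusted p = 0.0317). That last difference lost its call when any 1 of 6 libraries was left out (cirrhosis replicates 2, 5 and 6 and healthy replicates 1, 4 and 5, adjusted p up to 0.0808).

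Wnt4 and Wnt5a, ligands known also for signalling that does not use beta-catenin, were scarce. Wnt4 (ENSRNOG00000013166) ran from 3.10 CPM over a median of 3.71 to 12.1 CPM in healthy libraries. It was at 0.491, 0.676, 0.714, 0.987 and 1.06 CPM in acute injury and at 1.06, 3.22, 3.78, 5.85 and 6.77 CPM in fibrosis, and between 4.58 and 10.4 CPM in cirrhosis. The acute libraries lay at the bottom, fibrosis replicate 17 just above the highest of them, and the other 3 groups overlapped. Wnt4 was 6.06-fold lower in acute injury than in healthy (-2.60 ± 0.43, adjusted p = 0.000133, lost at -0.35 with scaling to the pan-endothelial markers, or -2.52 relative to the median of all genes on that scale) and 4.87-fold higher in fibrosis than in acute injury (2.28 ± 0.57, adjusted p = 0.0197). Unlike the calls on Wnt2 and Wnt9b, fibrosis against healthy did not pass for Wnt4 (-0.36, 95% confidence interval -1.42 to 0.70, adjusted p = 0.519, 2.20 with that scaling), nor did cirrhosis (0.43, adjusted p = 0.265), although without healthy replicate 3, the library at 12.1 CPM, the cirrhosis difference was called (0.67, adjusted p = 0.0466), as it was with library size alone (0.75, adjusted p = 0.0407) and with scaling to the pan-endothelial markers (1.17, adjusted p = 0.00438).

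Wnt5a (ENSRNOG00000015618) had 0 to 10 reads per healthy library and 1 to 14 per acute library. In fibrosis it was at 0.802, 0.878, 1.35, 1.90 and 5.57 CPM, on 27 to 198 reads, and every one of these values was above the highest healthy (0.259 CPM) and acute (0.446 CPM) library. Cirrhosis libraries held 0.112 to 0.86 CPM. The gene passed the filter on low counts only in comparisons with a group in which it was higher, so that a difference was built into those tests, and it was not tested between acute injury or cirrhosis and healthy. As a description, its fitted difference was 4.14 ± 0.76 on the log2 scale between fibrosis and healthy (adjusted p = 0.000357) and -1.84 between cirrhosis and fibrosis (adjusted p = 0.0158). Markers of stellate cells and fibroblasts, which are known to make WNT5A, moved too, in both directions. Of 10 tested between fibrosis and healthy, 3 were called higher, 3 lower and 4 not called. The collagen gene Col1a1 was at 46.6 ± 23.2 CPM (SD) in fibrosis and 1.49 ± 0.508 CPM in acute injury against 10.04 ± 4.05 CPM in healthy libraries. Another collagen gene, Col3a1, was at 22.4 ± 9.58 CPM in fibrosis and 5.20 ± 4.33 CPM in acute injury against 223 ± 137 CPM in healthy libraries. The part of these markers in the Wnt5a value was not tested. Without the reelin gene Reln, which took 89.9% to 99.6% of that list's sum in the 10 libraries of the earlier stages, the summed stellate and fibroblast markers were 164 to 606 CPM in healthy, 9.03 to 32.2 CPM in acute injury, 37.8 to 173 CPM in fibrosis and 494 to 1803 CPM in cirrhosis.

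Rspo3 encodes the R-spondin of the central vein endothelium. Rspo3 (ENSRNOG00000011568) ran from 9.40 CPM over a median of 14.6 to 32.3 CPM in healthy libraries. The acute libraries held 7.56, 13.5, 17.7, 17.9 and 26.6 CPM and the fibrosis libraries 10.3, 15.5, 17.5, 19.8 and 44.5 CPM, and cirrhosis libraries lay between 11.2 and 35.6 CPM with a median of 16.7 CPM. All 4 groups overlapped, and with TMM scaling none of the 6 comparisons among them passed. The difference from healthy was 0.02 in acute injury (95% confidence interval -0.78 to 0.82, adjusted p = 0.962), 0.40 in fibrosis (-0.46 to 1.25, adjusted p = 0.375) and 0.24 in cirrhosis (-0.44 to 0.93, adjusted p = 0.527). These intervals leave room for a change of nearly the size of the call threshold or above it, and do not show equal levels. The sign of the acute difference turned with upper-quartile scaling (-0.046), a filter at 1 CPM (-0.0079), a joint fit of the 4 groups (-0.019) and healthy replicates 3, 5 and 6 alone (-0.14). With scaling to the pan-endothelial markers Rspo3 was called higher than healthy in acute injury (2.29, adjusted p = 7.11e-05), fibrosis (2.96, adjusted p = 1.62e-05) and cirrhosis (1.01, adjusted p = 0.0187), and lower in cirrhosis than in fibrosis (-1.95) and acute injury (-1.27). Relative to the median of all genes on that scale, the 3 differences from healthy were 0.12, 0.43 and 0.18.

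Relative to Wnt2 in the same library, Rspo3 was more abundant in the earlier stages. The log2 ratio of Rspo3 to Wnt2 counts was -3.18 ± 0.74 (SD, n = 6) in healthy, -0.16 ± 0.38 (n = 5) in acute injury, 0.80 ± 0.59 (n = 5) in fibrosis and -2.48 ± 0.64 (n = 6) in cirrhosis. It rose 8.09-fold and 15.8-fold in acute injury and fibrosis, with no overlap with healthy (exact permutation p = 0.00216 in each, adjusted p = 0.00432). For cirrhosis the groups overlapped and the difference did not pass (0.70, exact permutation p = 0.113, adjusted p = 0.136), except without healthy replicate 6, the healthy library highest in Rspo3 (0.96, adjusted p = 0.0346).

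**Figure D2:**
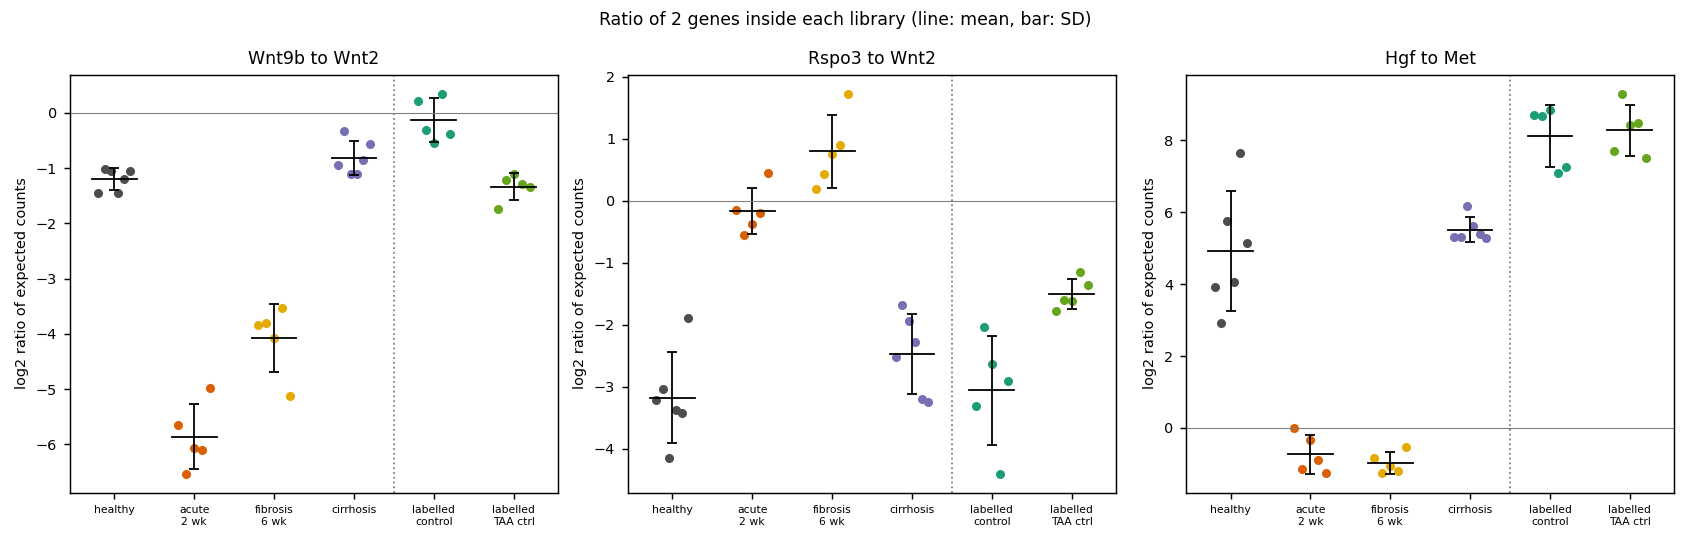
Log2 ratios of the expected counts of 2 genes inside each library (0.5 added to both), for Wnt9b to Wnt2, Rspo3 to Wnt2 and Hgf to Met, by group, with the mean as a line and the SD as a bar. In acute injury and fibrosis Wnt9b to Wnt2 and Hgf to Met lie below, and Rspo3 to Wnt2 above, every healthy library.

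On the receiving side, the Frizzled receptor gene Fzd4 (ENSRNOG00000016848), whose product is also the receptor for Norrin in vessels, was lower in the earlier stages and varied widely among healthy rats. The 6 healthy libraries held 56.3, 86.5, 103, 167, 277 and 279 CPM, with replicates 2, 4 and 1 the lowest, which are the 3 healthy libraries with the highest macrophage marker sums. Acute libraries were at 35.5, 53.8, 54.1, 65.6 and 98.5 CPM and fibrosis libraries at 48.8, 54.7, 57.5, 59.7 and 76.0 CPM, and cirrhosis libraries ran from 220 to 308 CPM with a median of 243 CPM. Both earlier stages overlapped with the low end of the healthy group and lay below all cirrhosis libraries. Fzd4 was called 2.29-fold lower in acute injury (-1.20 ± 0.42, adjusted p = 0.0199) and 2.19-fold lower in fibrosis (-1.13 ± 0.39, adjusted p = 0.0198), with TMM scaling. Scaled by library size alone neither passed (-0.79, adjusted p = 0.109, and -0.74, adjusted p = 0.125), and scaled to the pan-endothelial markers both turned positive (1.05 and 1.42), against a median of all genes of 2.17 and 2.53 on that scale. The acute call was also lost without healthy replicate 6 (-0.91, adjusted p = 0.0548) or acute replicate 4 (-1.0, adjusted p = 0.0601). With healthy replicates 3, 5 and 6 alone the differences were -1.90 and -1.93.

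In cirrhosis Fzd4 was 4.04-fold higher than in fibrosis (2.01 ± 0.12, adjusted p = 1.97e-08) and 4.16-fold higher than in acute injury (adjusted p = 1.33e-06), calls that were lost with scaling to the pan-endothelial markers (0.16 and 0.52). Its difference from healthy was 0.83 (95% confidence interval 0.09 to 1.58, adjusted p = 0.0533) and crossed the threshold without healthy replicate 5 (1.03, adjusted p = 0.0147) or 6 (1.02, adjusted p = 0.0167). It was also called with scaling to the pan-endothelial markers (1.57, adjusted p = 0.000992), library size alone (1.17, adjusted p = 0.0134), upper-quartile factors (0.97), DESeq2 size factors (0.85), a filter at 1 CPM (0.93) and the joint fit (0.82), while with healthy replicates 3, 5 and 6 alone it was 0.07.

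Dkk3 (ENSRNOG00000016343) encodes a divergent member of the Dickkopf family of secreted Wnt inhibitors. Healthy libraries ran from 11.5 CPM over a median of 18.1 to 61.2 CPM, the last in replicate 5. Acute libraries held 0.628, 0.898, 1.05, 1.06 and 2.83 CPM, fibrosis libraries 2.12, 2.45, 3.18, 3.19 and 4.17 CPM, and cirrhosis libraries 11.8 to 29.5 CPM with a median of 22.4 CPM. Both earlier stages were below all other libraries. Dkk3 was 18.3-fold lower in acute injury (-4.19 ± 0.54, adjusted p = 1.92e-05), 6.71-fold lower in fibrosis (-2.75 ± 0.44, adjusted p = 0.000134, lost at -0.20 with scaling to the pan-endothelial markers), 2.83-fold higher in fibrosis than in acute injury (1.5 ± 0.34, adjusted p = 0.0136, lost in a joint fit of the 4 groups with an adjusted p of 0.158) and 6.79-fold higher in cirrhosis than in fibrosis (2.76, adjusted p = 7.04e-06). With scaling to the pan-endothelial markers the acute difference was -1.96 and that between cirrhosis and fibrosis 0.90. Relative to the median of all genes on that scale, Dkk3 was at -4.13 in acute injury, -2.73 in fibrosis and 2.72 between cirrhosis and fibrosis. Between cirrhosis and healthy the difference was -0.03 (95% confidence interval -0.79 to 0.72, adjusted p = 0.944).

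Axin2 (ENSRNOG00000055010), a scaffold of the beta-catenin destruction complex that is itself switched on by beta-catenin, serves as a common readout of the pathway. In healthy libraries it lay between 2.36 and 5.09 CPM with a median of 3.48 CPM. The acute libraries held 0.622, 0.785, 1.08, 1.34 and 1.47 CPM, the fibrosis libraries 2.45, 2.51, 2.64, 2.83 and 3.52 CPM, and the cirrhosis libraries 4.85 to 6.11 CPM with a median of 5.29 CPM. Acute injury lay apart below the healthy range, fibrosis inside it, and cirrhosis near or above its top. Axin2 was 3.41-fold lower in acute injury (-1.77 ± 0.31, adjusted p = 0.0002), a direction that turned with scaling to the pan-endothelial markers (0.51, adjusted p = 0.206, or -1.66 relative to the median of all genes on that scale). It was 2.97-fold higher in fibrosis than in acute injury (1.57 ± 0.25, adjusted p = 0.00443) and 1.86-fold higher in cirrhosis than in fibrosis (0.90 ± 0.13, adjusted p = 3.67e-05), the latter turning to -0.95 with scaling to the pan-endothelial markers, or 0.87 relative to the median of all genes on that scale. Fibrosis against healthy did not pass (-0.26, 95% confidence interval -0.75 to 0.24, adjusted p = 0.32, 2.32 with that scaling).

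The rise of Axin2 in cirrhosis stood at the edge of the call, at 1.5-fold (0.59 ± 0.18, adjusted p = 0.0136). It fell short of the fold threshold with edgeR (0.58, adjusted p = 0.0172) and when any 1 of 6 libraries was left out (cirrhosis replicates 2 and 3 and healthy replicates 2, 3, 4 and 5, lowest 0.48), and missed the adjusted p with healthy replicates 3, 5 and 6 alone (0.56, adjusted p = 0.0822). With scaling to the pan-endothelial markers it was 1.36 (adjusted p = 0.000262). Its promoter is shown because it was the only one of the 9 found that held a TCF core. The 250 bases before the start lie at chr10:94398535-94398784 of GRCr8 on the plus strand, 47.6% G and C, with CTTTGAA at 232 and CTTTGAT at 132 bases before the start in capitals.
Axin2: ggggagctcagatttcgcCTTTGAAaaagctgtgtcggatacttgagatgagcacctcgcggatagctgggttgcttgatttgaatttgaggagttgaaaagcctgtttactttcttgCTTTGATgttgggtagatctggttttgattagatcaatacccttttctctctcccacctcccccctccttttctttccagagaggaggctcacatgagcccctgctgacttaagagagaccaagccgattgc
CTTTGAT alone was present in 3.15% and CTTTGAA in 4.68% of the 33469 promoters, and a match of letters does not show binding.

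Hgf and Met encode a ligand and its receptor, and in the earlier stages they went in opposite directions. Hgf (ENSRNOG00000007027) ranged widely among healthy rats, with 18.4, 52.5, 66.3, 112, 150 and 215 CPM in replicates 2, 4, 1, 3, 5 and 6. Acute libraries held 11.7, 17.4, 25.4, 28.4 and 31.2 CPM, fibrosis libraries 13, 15.6, 16.7, 17.2 and 17.4 CPM, and cirrhosis libraries 255 to 417 CPM with a median of 318 CPM. Healthy replicate 2 lay inside the acute range and the others above it, and every cirrhosis library was above every healthy one, as was the case for 11.8% of genes tested in that comparison. With TMM scaling Hgf was 3.55-fold lower in acute injury (-1.83 ± 0.56, adjusted p = 0.00928) and 4.65-fold lower in fibrosis (-2.22 ± 0.54, adjusted p = 0.00271), while scaling to the pan-endothelial markers gave 0.41 and 0.32, or -1.76 and -2.21 relative to the median of all genes on that scale. Fibrosis against acute injury did not pass (-0.35, adjusted p = 0.35).

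In cirrhosis Hgf was 4.1-fold higher than in healthy (2.03 ± 0.46, 95% confidence interval 1.03 to 3.03, adjusted p = 0.0028) and 19.8-fold higher than in fibrosis (4.31 ± 0.14, adjusted p = 2.6e-10). Against healthy replicates 3, 5 and 6 alone the rise was 1.09 (adjusted p = 0.00651), and with scaling to the pan-endothelial markers it was 2.77 from healthy and 2.45 from fibrosis. Stellate cells are another known source of HGF in the liver, and 9 of 11 stellate and fibroblast markers were called higher in cirrhosis than in healthy, including the retinol esterifying enzyme gene Lrat (85.3 ± 35.7 against 31.7 ± 30.1 CPM, SD) and Pdgfrb (42.2 ± 15.5 against 7.23 ± 3.20 CPM). Their part in the Hgf value was not tested.

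Met (ENSRNOG00000052745) was the member that was higher in both earlier stages. Its healthy libraries ran from 0.735 CPM over a median of 2.78 to 6.03 CPM. Acute libraries held 28, 28.4, 38.3, 39.1 and 47.3 CPM, fibrosis libraries 24.7, 27.9, 30.8, 36.2 and 38.2 CPM, and cirrhosis libraries 5.41 to 8.48 CPM with a median of 7.47 CPM. The 10 libraries of the earlier stages stood far above the rest, and cirrhosis overlapped only with the highest healthy library. Met was 13.7-fold higher in acute injury (3.78 ± 0.40, adjusted p = 3.1e-06) and 12.5-fold higher in fibrosis (3.64 ± 0.39, adjusted p = 4.34e-06), and kept that direction with scaling to the pan-endothelial markers (6.08 and 6.24, or 3.91 and 3.71 relative to the median of all genes on that scale). In cirrhosis it was 4.5-fold lower than in fibrosis (-2.17 ± 0.15, adjusted p = 7.43e-08) and still 2.65-fold higher than in healthy (1.41 ± 0.37, adjusted p = 0.00629), or -4.04 and 2.20 with that scaling. MET is best known on epithelial cells, and the hepatocyte markers summed to 86.2 to 781 CPM in acute injury and 1013 to 4210 CPM in fibrosis, against 728 to 17968 CPM in healthy. The cholangiocyte markers summed to 0.351 to 1.31 CPM in acute injury and 3.15 to 18.5 CPM in fibrosis, against 2.06 to 33.4 CPM in healthy. The part of such cells in the Met value was not tested.

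Inside a library, the log2 ratio of Hgf to Met counts was 4.91 ± 1.67 (SD, n = 6) in healthy, -0.72 ± 0.54 (n = 5) in acute injury, -0.97 ± 0.29 (n = 5) in fibrosis and 5.51 ± 0.34 (n = 6) in cirrhosis. It was 49.7-fold and 59-fold lower in the earlier stages, with no overlap (exact permutation p = 0.00216 in each, adjusted p = 0.00432). Between cirrhosis and healthy it did not pass (0.60, exact permutation p = 0.437, adjusted p = 0.477).

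**Figure D3:**
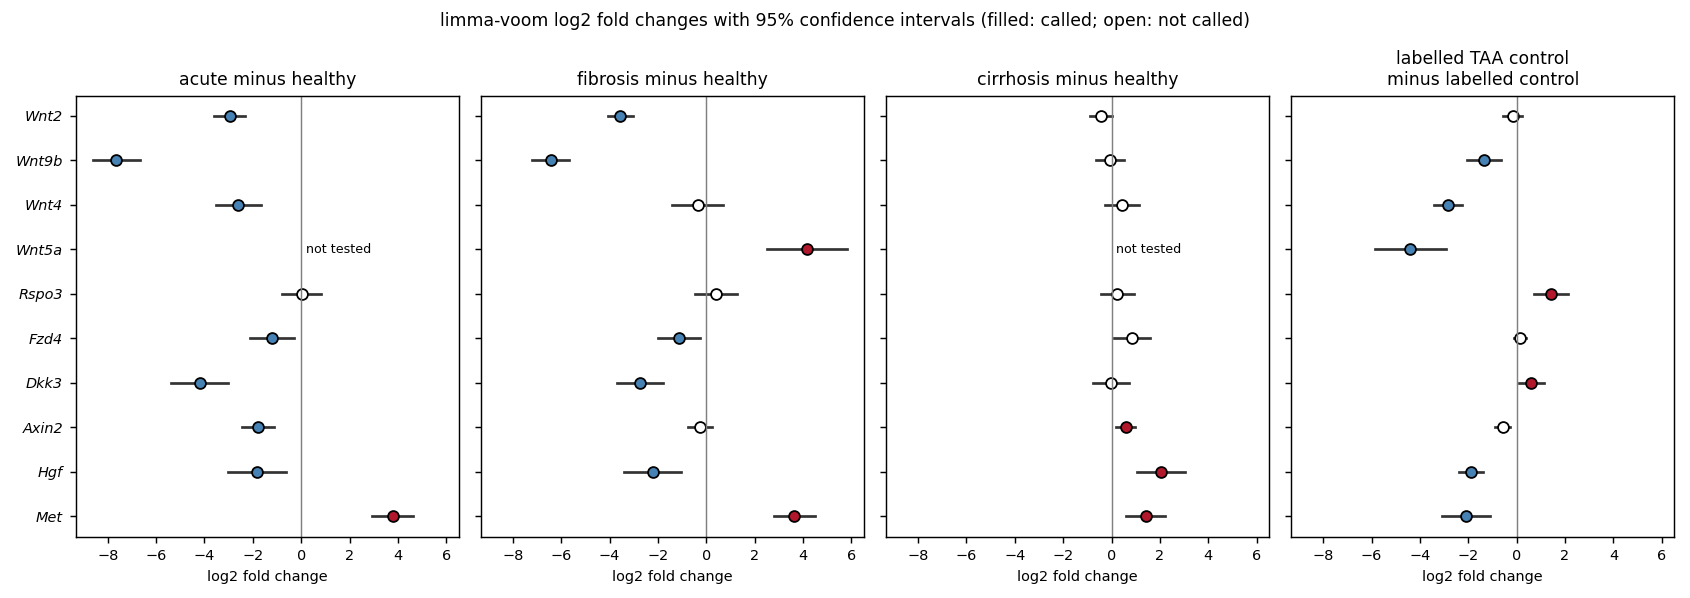
Log2 fold changes from limma-voom for the 10 genes in 4 comparisons, with 95% confidence intervals, filled where called and open where not; Wnt5a was not tested in 2 of them. Wnt9b, Dkk3, Wnt2 and Wnt4 lie furthest to the left in acute injury, Met to the right, and in cirrhosis only Axin2, Hgf and Met are filled.

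The stages were also set against each other. Between fibrosis and acute injury, 4 of 10 members were called, all higher in fibrosis (Wnt4, Wnt5a, Dkk3 and Axin2), where 11% of 13931 genes were called (10.2% higher, 0.732% lower). For 3 of them, Wnt4, Wnt5a and Axin2, the groups did not overlap, as for 18.7% of genes (6.09% higher, 12.6% lower). Between cirrhosis and fibrosis 8 of 10 were called, Wnt2, Wnt9b, Fzd4, Dkk3, Axin2 (lower with scaling to the pan-endothelial markers) and Hgf higher and Wnt5a and Met lower, with 63.8% of 15186 genes called (34.3% higher, 29.5% lower). The groups did not overlap for the 6 higher members and Met, as for 62.9% of genes (32.4% higher, 30.5% lower). Between cirrhosis and acute injury 8 of 10 were called, with Met alone lower and no overlap for any of the 8, against 69.3% of 15005 genes called (37.5% higher, 31.8% lower) and 65.5% without overlap (34.1% higher, 31.4% lower). Rspo3 was in none of these sets with TMM scaling. Wnt9b (7.62), Dkk3 (4.19) and Hgf (3.88) had the largest log2 differences between cirrhosis and acute injury with TMM scaling, and were at 6.09, 2.66 and 2.36 with scaling to the pan-endothelial markers.

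In the TAA experiment the levels are given by label, the group labelled control first. Wnt2 was at 79.7, 83.8, 114, 118 and 174 CPM and in the group labelled TAA control at 91.0, 91.4, 97.0, 105 and 108 CPM, and these overlapped (-0.16, 95% confidence interval -0.55 to 0.23, adjusted p = 0.485). Wnt9b was at 57.5, 61.5, 95.2, 145 and 203 CPM against 31.6, 37.6, 38.4, 42.5 and 46.9 CPM, with no overlap, and was 2.56-fold lower in the group labelled TAA control (-1.36 ± 0.31, adjusted p = 0.00451). Only Wnt9b of this pair was thus called, and the Wnt9b to Wnt2 ratio inside a library was 2.3-fold lower in the group labelled TAA control (exact permutation p = 0.00794, the smallest 5 against 5 libraries allow, adjusted p = 0.0119). Wnt4 was at 7.25 to 11.2 CPM against 0.856 to 1.8 CPM (-2.84 ± 0.27, adjusted p = 2.79e-05) and Wnt5a at 1.20 to 3.49 CPM against 0 to 0.205 CPM, on at most 6 reads (-4.39 ± 0.66, adjusted p = 0.000394), both lower in the group labelled TAA control and without overlap. Wnt5a passed the filter there only through the group labelled control, so that its difference is a description.

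Rspo3 was higher there, at 5.36, 10.6, 13.5, 17.5 and 28.6 CPM in the group labelled control and 29.8, 30.7, 35.6, 38.0 and 41.0 CPM in the group labelled TAA control, which do not overlap (2.65-fold, 1.41 ± 0.32, adjusted p = 0.0041). The ratio of Rspo3 to Wnt2 was 2.95-fold higher (exact permutation p = 0.00794, adjusted p = 0.0119). Fzd4 was at 232 to 333 CPM against 265 to 347 CPM and did not pass (0.12, 95% confidence interval -0.12 to 0.37, adjusted p = 0.383). Dkk3 was called 1.52-fold higher with overlapping ranges of 11.1 to 28.1 and 17.3 to 30.1 CPM (0.61 ± 0.23, adjusted p = 0.0486), a call that was lost with edgeR (adjusted p = 0.0689), with DESeq2 (adjusted p = 0.0517) and in 8 of the 10 fits that left out 1 library (adjusted p up to 0.116). Axin2, at 3.07 to 4.53 CPM against 2.16 to 2.62 CPM, did not overlap and had an adjusted p of 0.00737, and its difference of -0.58 ± 0.15 fell just short of the fold threshold, which edgeR (-0.60) and DESeq2 (-0.62) put on the other side.

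The HGF pair was lower in the group labelled TAA control. Hgf was at 809, 828, 837, 1030 and 1200 CPM in the group labelled control and at 174, 186, 284, 285 and 393 CPM in the other, 3.68-fold lower (-1.88 ± 0.22, adjusted p = 0.000106). Met was at 1.97, 2.49, 2.61, 5.50 and 5.94 CPM against 0.530, 0.607, 0.781, 0.822 and 1.54 CPM, 4.27-fold lower (-2.10 ± 0.46, adjusted p = 0.00326). Neither gene's groups overlapped, and the ratio of Hgf to Met did not differ past the threshold (0.17, exact permutation p = 0.714). Stellate and fibroblast markers moved with these labels as well, 9 of 11 being called lower in the group labelled TAA control. Their sum was 2072 to 5322 CPM in the group labelled control and 346 to 543 CPM in the other, and Col1a1 was at 208 ± 50.8 against 8.32 ± 4.87 CPM (SD), whereas Lrat was not called (123 ± 63.3 against 94.6 ± 6.6 CPM, adjusted p = 0.544). Of the 9 dissociation genes, 8 were called higher in the group labelled TAA control. The part of these differences in the member values was not tested, and replicates 14 and 15 of that group had the smallest count difference of all replicate pairs (chi-square per degree of freedom 2.96, next lowest 23.6), which was still beyond sampling noise.

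**Figure D4:**
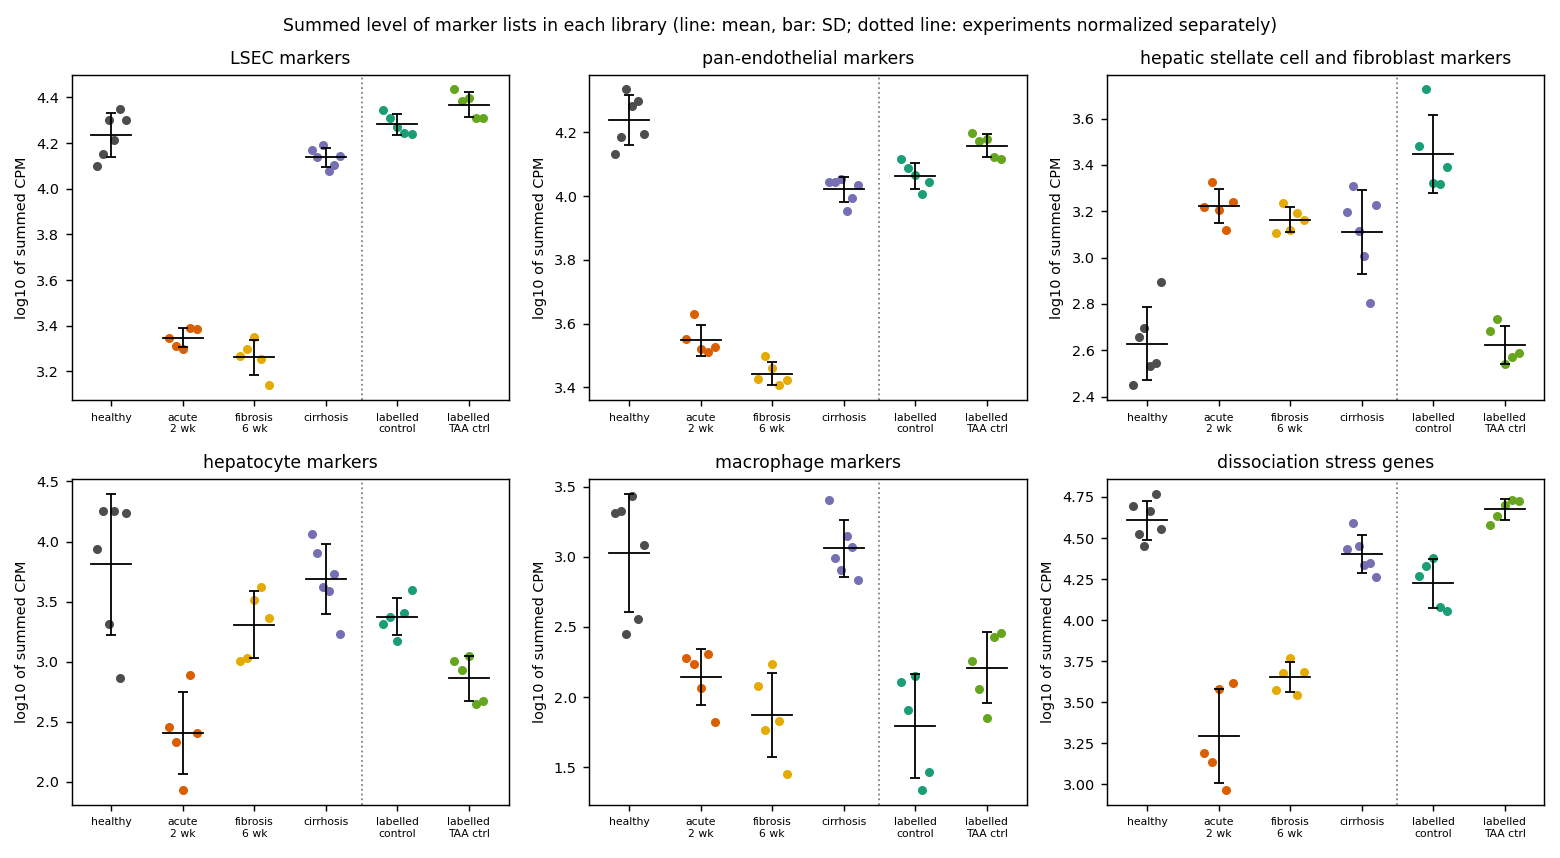
Summed CPM of 6 marker lists in each library on a log10 axis by group, with the mean as a line and the SD as a bar; the experiments were normalized separately. LSEC, pan-endothelial and dissociation genes are low in acute injury and fibrosis, and the stellate list, which Reln dominates in those 2 groups, is higher in the group labelled control than in the group labelled TAA control.

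Around the members, the other Wnt ligands were mostly out of reach. Of 16 further ligand genes, including Ndp for Norrin, 2 or 3 passed the filter in the comparisons with healthy. Wnt9a was called higher in acute injury (0.81 against 0.372 CPM, log2 fold change 1.22) and in fibrosis (1.63), Wnt11 lower in acute injury (-2.84), and Wnt5b higher in cirrhosis (3.81 against 0.436 CPM, 2.86), all at means under 4 CPM and named after their values were seen. Wnt9a and Wnt5b passed the filter on low counts in comparisons with healthy only where the other group was high in them, so that, as for Wnt5a, those differences were built into the tests. Wnt11 had at most 14 reads in an acute library and passed in that comparison only through healthy, so that its fall was built in likewise. Both genes of Wnt secretion, Porcn for the acyltransferase that adds the lipid and Wls for the carrier that brings Wnts to the surface, were called lower in acute injury (-1.99 and -0.92) and fibrosis (-2.42 and -0.84), and Porcn also in cirrhosis (-1.49). Values of these other pathway genes, here and in the following paragraphs, are with TMM scaling only. Scaling to the pan-endothelial markers moved the median of all genes to 2.17, 2.53 and 0.826 in these 3 comparisons. Falls smaller than such a move may turn on that scale. In the R-spondin group, Lgr4, the receptor for RSPO3, was not called in acute injury (-0.06, adjusted p = 0.836) or fibrosis (-0.06, adjusted p = 0.845) and was called higher in cirrhosis (0.77, adjusted p = 0.0123). Rspo1 was called higher in cirrhosis too (1.06, adjusted p = 0.00898), and Rnf43, the ligase that removes Frizzled receptors, was lower in acute injury (-3.47) from a healthy mean of 1.39 CPM. Rspo1 and Rnf43 were likewise named after their values were seen. Rnf43 had at most 6 reads in an acute library and passed the filter there only through healthy, so that its fall was built into the test.

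The list counts here and in the following paragraphs have to be read beside the shares of all genes called. Those were 35.5% higher and 37.9% lower in acute injury, 35.3% and 34.9% in fibrosis, and 27.1% and 24.7% in cirrhosis. Counts near these shares say nothing particular about a list. Of the other receptors and co-receptors, 4 of 15 tested were called higher and 8 lower in acute injury, 6 and 7 of 16 in fibrosis, and 2 and 3 of 15 in cirrhosis. Fzd3, with at most 10 reads in a healthy library, passed the filter in the first 2 only through the other group, so that any rise was built in. The co-receptor gene Lrp5 was lower in all 3 (-3.14, -3.26 and -1.5), as was Adgra2, which codes for a partner of WNT7 signalling in vessels (-3.34, -3.53 and -1.0), and the WNT5A receptor gene Ror2 was lower in the first 2 (-2.92 and -2.75). Fzd6 was called higher in cirrhosis (0.86), with means of 9.86 CPM in healthy, 29.7 CPM in acute injury, 34.6 CPM in fibrosis and 17.4 CPM in cirrhosis. Secreted inhibitors other than Dkk3 were called 1 higher and 5 lower of 8 in acute injury, 1 and 4 of 8 in fibrosis, and 3 and 0 of 9 in cirrhosis. Notum, Sfrp1 and Frzb had at most 1, 5 and 7 reads in an acute library, and Notum and Frzb at most 8 and 9 in a fibrosis library. There they passed the filter only through healthy, so that any fall was built in and lends these counts no support. Dkk4 was called higher at all 3 stages (1.17, 1.12 and 1.16).

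Inside the cell, the destruction complex and transcription factors of the pathway were called 5 higher and 5 lower of 16 in acute injury, 6 and 5 in fibrosis, and 4 and 5 in cirrhosis. Tcf7l1, which codes for a TCF known mainly as a repressor, was lower at each stage (-3.46, -3.49 and -1.16), and Apc, a destruction complex scaffold gene, was higher (2.34, 2.20 and 1.53). Feedback targets other than Axin2 were called 1 higher and 6 lower of 9 in acute injury, 1 and 5 of 9 in fibrosis, and 3 and 1 of 9 in cirrhosis. These counts hold Notum in acute injury and fibrosis and Rnf43 in acute injury, which passed the filter there only through healthy, so that any fall was built in. The cyclin gene Ccnd1 was lower in acute injury and fibrosis (-2.75 and -3.34), Myc was higher at all 3 stages (2.47, 2.64 and 0.93), and in cirrhosis Nkd1 was higher (1.34) and its relative Nkd2 lower (-1.44). The list thus held genes of both directions at each stage.

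HGF is secreted as a precursor that proteases cut, and the list of its activators, their inhibitors and MET adaptors was called 2 higher and 12 lower of 16 tested in acute injury, 2 and 6 of 16 in fibrosis, and 3 and 0 of 16 in cirrhosis. Hpn (-7.11), F2 (-5.51) and Hgfac (-5.26), the leading falls in acute injury, are genes that hepatocytes are known to express, and the 9 hepatocyte markers were all called lower there. The part of hepatocytes in these falls was not tested. Hpn had at most 10 reads in an acute library and passed the filter on low counts only through healthy, so that its fall was built into the test. The same holds for Spint1 and Mst1r, with at most 6 and 7 reads in an acute library. Such genes lend the count of lower calls in acute injury no support. Plau, for the urokinase activator, was lower in fibrosis (-2.56), with means of 140 CPM in healthy, 28.8 CPM in acute injury and 22.2 CPM in fibrosis. In cirrhosis Plat, for tissue plasminogen activator, was higher (2.22, adjusted p = 6.94e-05). In the TAA experiment 9 of 15 were called, all lower in the group labelled TAA control, where 14.9% of all genes were called lower and 12.7% higher. The 3 with the largest falls among those with a mean log2 CPM of at least 1 were Plat (-4.09), Mst1 (-3.08) and Plaur (-2.09).

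**Figure D5:**
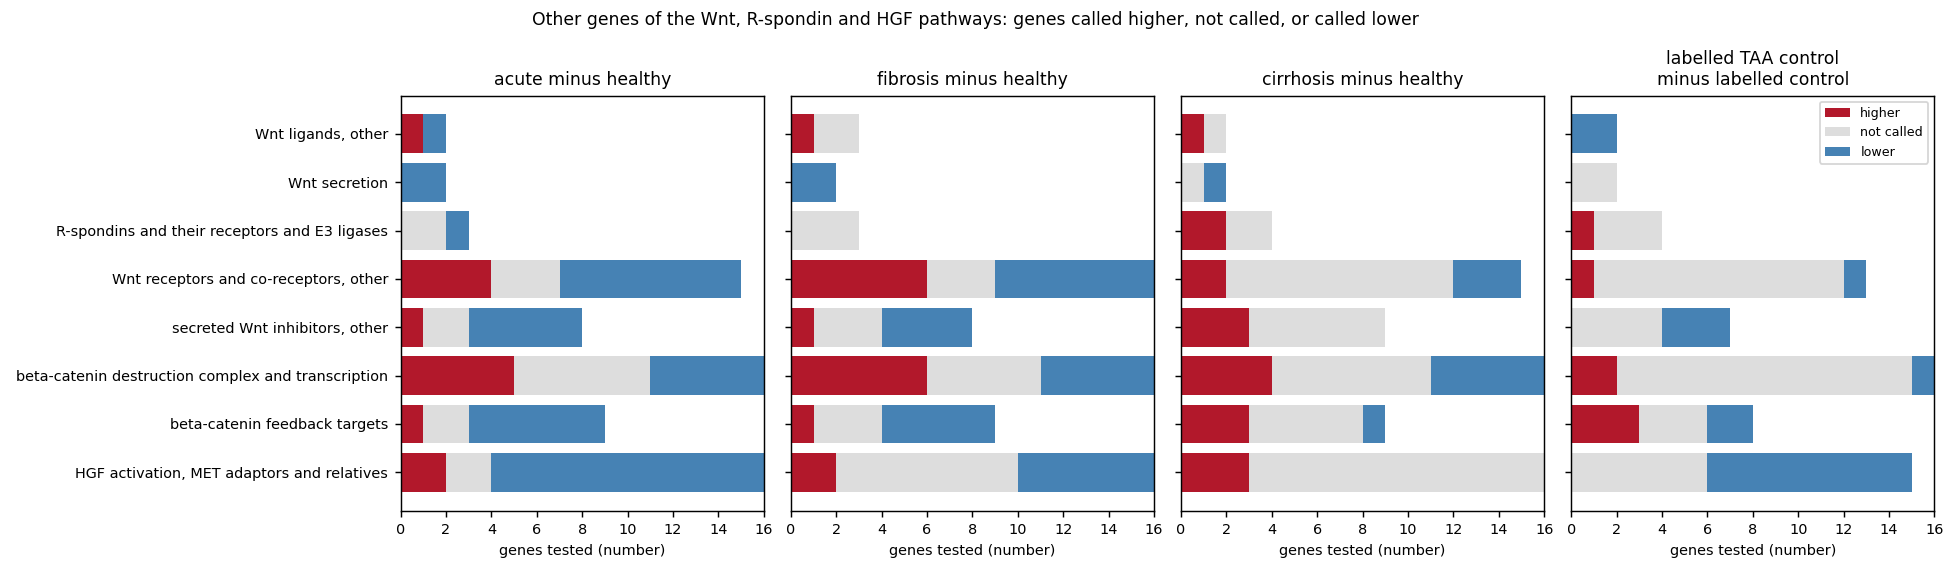
Number of genes called higher, not called and called lower among those tested in 8 lists of the Wnt, R-spondin and HGF pathways, the members left out, for 4 comparisons. Lower calls outnumber higher ones for HGF activation, 12 against 2 in acute injury and 9 against 0 in the group labelled TAA control. Some lower calls in acute injury rest on few reads there and were built into the tests. Of all genes tested, 37.9% were called lower and 35.5% higher in acute injury, and 14.9% and 12.7% in the group labelled TAA control.

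Across the 22 libraries of the CCl4 model, the genes whose centred log2 CPM was nearest to that of a member are given as a description, measured by the root mean square of the differences over 11029 genes. Nearest to Wnt2 were the Notch-regulated gene Nrarp (0.36), the sorting receptor gene Sort1 (0.37) and Map4k2 (0.39), where the median gene was at 1.66. For Wnt9b they were Endou (0.43), the chemokine scavenger gene Ackr4 (0.44) and the endothelial protocadherin gene Pcdh12 (0.51), with a median of 3.01. Rspo3 had Prdm2 (0.51), Sgtb (0.51) and Parp4 (0.52) nearest, with a median of 0.94. Hgf had Cyyr1 (0.49), the junction gene Jam2 (0.59) and Fam13a (0.63), with a median of 1.93. These distances rest on 4 groups of libraries that share depth and preparation, and follow from the group means in large part.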

How the data were processed

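The authors deposited expected counts per gene and library. They made them with RSEM from poly(A) RNA of stranded libraries, aligned with STAR to Rnor 6.0; FastQC, Trim Galore and limma also stand in the submitters' processing notes, and tool versions are not given in the sources used here. Expected counts were rounded and filtered with filterByExpr, and each pair of groups was fitted with TMM scaling and limma-voom (R 4.3.3, limma 3.58.1, edgeR 4.0.16). Ratios inside a library (0.5 counts added) were compared with exact two-sided permutation tests, adjusted over 12 tests. Groups came from the sample labels, and no library was left out. The scripts were tested on simulated data. Alternatives were edgeR's quasi-likelihood test, DESeq2 1.42.0, other scalings and filters, other thresholds, a joint fit of 4 groups, a replicate block and leaving out each library; scaling to pan-endothelial markers, healthy replicates 3, 5 and 6 alone, and replicates 14 and 15 as 1 library were added after seeing the data. The members, lists and tests were chosen with earlier results of these data known. All members were named, with up to 3 called genes per pathway list of largest change (mean log2 CPM of at least 1) and the 3 nearest genes of 4 members. Figures were drawn with matplotlib 3.10.9. Counting was at gene level, so genes sharing reads cannot be separated further, and PCR duplicates were not identified.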

Additional observations from a re-analysis of the deposited data

Results flagged for a closer look

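Among 60 sets of libraries (each of the 10 genes in each of the 6 groups), 1 had a library standing apart by Dixon's criterion, where chance flags about 1 in 20 and so about 3 of 60. Axin2 was at 4.53 CPM in replicate 4 of the group labelled control, the other 4 libraries of that group lying between 3.07 and 3.42 CPM.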

How the results depend on the processing

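Between cirrhosis and healthy, 3 members were called, 5 with library size without TMM, 7 with pan-endothelial scaling and 2 to 5 over the fits leaving out 1 library (5 without healthy replicate 6). Genes called in that comparison fell from 7660 to 4751 with healthy replicates 3, 5 and 6 alone. Between fibrosis and acute injury, 1529 genes were called, 2826 without the fold threshold, 746 in the joint fit, 2382 with pan-endothelial scaling and 1011 to 2166 over the fits leaving out 1 library (1011 without acute replicate 1). In the TAA experiment 3970 genes were called, 7139 without the fold threshold. Against healthy, the median log2 fold change of all genes moved to 0.323, 0.367 and 0.416 (acute, fibrosis, cirrhosis) with library size alone, where 58.2%, 60.9% and 71.3% of calls were higher in place of 48.4%, 50.3% and 52.2%, and to 2.17, 2.53 and 0.826 with pan-endothelial scaling (87.3%, 93.6% and 90.3%). In cirrhosis 60.4% were higher with upper-quartile factors and 42.8% with healthy replicates 3, 5 and 6 alone, and between fibrosis and acute injury 60.5% without the fold threshold, in place of 93.3%. Apart from pan-endothelial scaling, signs turned for differences that had not passed: Rspo3 in acute injury (-0.046 upper quartile, -0.0079 filter at 1 CPM, -0.019 joint fit, -0.14 healthy replicates 3, 5 and 6 alone), Wnt4 (0.020) and Axin2 (0.15) in fibrosis with library size, and in cirrhosis Wnt9b (0.015 DESeq2, 0.29 library size, 0.089 upper quartile, 0.044 filter) and Dkk3 (0.31, 0.11 and 0.063 under those 3 scalings and filters, 0.00031 without a filter). With pan-endothelial scaling, signs turned for the values given in the report and for Wnt2, Wnt9b and Dkk3 in cirrhosis against healthy (0.31, 0.70 and 0.70), Wnt4 in cirrhosis against fibrosis (-1.03), Met in fibrosis against acute injury (0.16) and Fzd4 in the TAA experiment (-0.18). Causes were not tested.

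Leaving out 1 library, signs turned within -0.16 to 0.35 for Rspo3 in acute injury, -0.58 to 0.084 for Wnt4 in fibrosis, and -0.22 to 0.064 and -0.20 to 0.27 for Wnt9b and Dkk3 in cirrhosis. They also turned for Fzd4 (-0.065 to 0.30) and Met (-0.19 to 0.0062) between fibrosis and acute injury, for Rspo3 between cirrhosis and fibrosis (-0.32 to 0.22) or acute injury (-0.021 to 0.44), and in the TAA experiment for Wnt2 (-0.26 to 0.0058) and the Hgf to Met ratio (-0.087 to 0.36). The cirrhosis ratios ranged from 0.29 to 0.44 for Wnt9b to Wnt2 and 0.51 to 0.96 for Rspo3 to Wnt2.

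Libraries of the same replicate number had correlations of deviations of -0.268 to 0.318 over 6 pairs of healthy and cirrhosis. They were 0.0299 to 0.218 over 4 pairs of healthy and acute injury, and -0.0996 to 0.108 over 4 of acute injury and cirrhosis. Pairs of different numbers were not examined, so whether the numbers pair libraries was not tested. With a replicate block, Axin2 in cirrhosis lost its call (0.58, adjusted p = 0.0577), and Fzd4 in cirrhosis (0.84, adjusted p = 0.0466) and Wnt5a (2.21, adjusted p = 0.0127) and Rspo3 (0.66, adjusted p = 0.0263) between cirrhosis and acute injury gained one. Depth limits Wnt5a and, after CCl4 for 2 and 6 weeks, Wnt9b.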
